A study of Rattus norvegicus with 4 samples.

Results

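The genes of the mitochondrial chromosome were the 37 rows of the deposited count table whose position in the rat assembly Rnor_6.0 lies on MT, out of 32883 rows in all. They comprised 13 protein genes, 2 ribosomal RNA (rRNA) genes and 22 transfer RNA (tRNA) genes. RNA was sequenced from HSC-T6 cells, an immortalised line of rat hepatic stellate cells, liver cells that make scar collagen once activated. The 4 libraries were 2 of cells given ginsenoside Rk1 (written GRK1 in the labels), a saponin of processed ginseng, and 2 of untreated cells, so that n = 2 in each group throughout. The labels give no dose, duration, vehicle or separate cultures, and all libraries come from the same line, so the p-values rest on library-to-library spread alone, part or all of which may be technical.

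The mitochondrial chromosome is a small circle read from both strands as long joined transcripts. A phage-like polymerase, Polrmt, makes them from start sites in the control region with the help of Tfam and Tfb2m. The tRNAs lie between the other genes, and cutting them out at both ends, by mitochondrial RNase P and Elac2, frees the mRNAs and rRNAs. Most of the mRNAs, though not all, are then polyadenylated and held stable by the Lrpprc and Slirp proteins. Breakdown is by a complex that holds the nuclease Pnpt1. The protein genes encode the membrane core of respiratory complexes I, III and IV and of ATP synthase (complex V). Each mRNA also has its own rate of decay, so genes of a shared transcript can reach different levels.

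Total counts per library ranged from 18008586 to 20430930, and 3 counts are worth 0.147 to 0.167 CPM, the count scaled to library size, depending on the library. Across all genes, 12316 were abundant enough to be tested, and edgeR's quasi-likelihood test called 22.0% of them at a Benjamini-Hochberg adjusted p under 0.05, with 11.5% higher and 10.5% lower with Rk1. The stellate and fibroblast markers Col1a1, Col3a1 and Vim were abundant, at 1175 CPM or more in every library. The rest of the 9 stellate and fibroblast markers were low, with Pdgfrb at 25.5 to 36.7 CPM over the libraries, Des at 5.05 to 7.45 and Acta2 at 0.329 to 3.59. The stellate marker genes Lrat and Reln were at 0 counts in all libraries, and Hand2 was under 1 CPM. Summed, the stellate and fibroblast list held 11921 and 11833 CPM with Rk1, and 18725 and 17680 CPM untreated. Col1a1 alone held 8060 and 7964 CPM of it with Rk1, and 12478 and 11608 CPM untreated. Its part in the mitochondrial results was not tested. Summed over its markers, each of the hepatocyte, endothelial and cholangiocyte lists stayed at or under 0.334 CPM in every library, and the macrophage and leukocyte list at or under 1.78 CPM. In bulk libraries, more cells of a kind and more RNA per cell cannot be told apart.

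In the table, 28 of the 37 mitochondrial rows lie on the plus strand and 9 on the minus strand. Of the protein genes, 12 are on the plus strand and Mt-nd6 alone is on the minus strand. The rows are packed from base 1 to base 15415, with 14 of 36 neighbouring pairs abutting, 7 overlapping and a longest gap of 32 bases. The longest overlaps join Mt-atp8 and Mt-atp6 over 43 bases (MT:7919-7961, same strand), Mt-nd5 and Mt-nd6 over 23 bases (MT:13543-13565, opposite strands) and Mt-nd4l and Mt-nd4 over 7 bases (MT:10160-10166, same strand). Reads that touch such overlaps, or that match copies of mitochondrial sequence in the nuclear genome, may be dropped or divided, and how the authors' counting treated them is not given in the sources used here. Levels set between genes are therefore uncertain, and the part of counting in them was not tested.

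Rows on the mitochondrial chromosome held 3.60% and 3.68% of all gene counts in the Rk1 libraries, against 3.11% and 3.24% in the untreated libraries. Both Rk1 libraries were above both untreated ones, with means of 3.64% ± 0.061 with Rk1 and 3.18% ± 0.091 untreated (SD), a difference of 0.461 percentage points. Exact (Clopper-Pearson) 95% intervals, which cover counting error only, were 3.59% to 3.60% and 3.67% to 3.69% with Rk1, and 3.11% to 3.12% and 3.23% to 3.25% untreated. An exact two-sided permutation test gave p = 0.333, which is the smallest that 2 libraries against 2 can give. Nearly all of this was mRNA: the 13 protein genes gave 646762 and 666776 counts with Rk1, and 635570 and 588719 untreated. The 22 tRNA rows together gave 682 and 541 counts with Rk1, and 581 and 534 untreated. The 2 rRNA rows together gave 1 and 4 counts with Rk1, and 8 and 1 untreated.

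**Figure D1:**
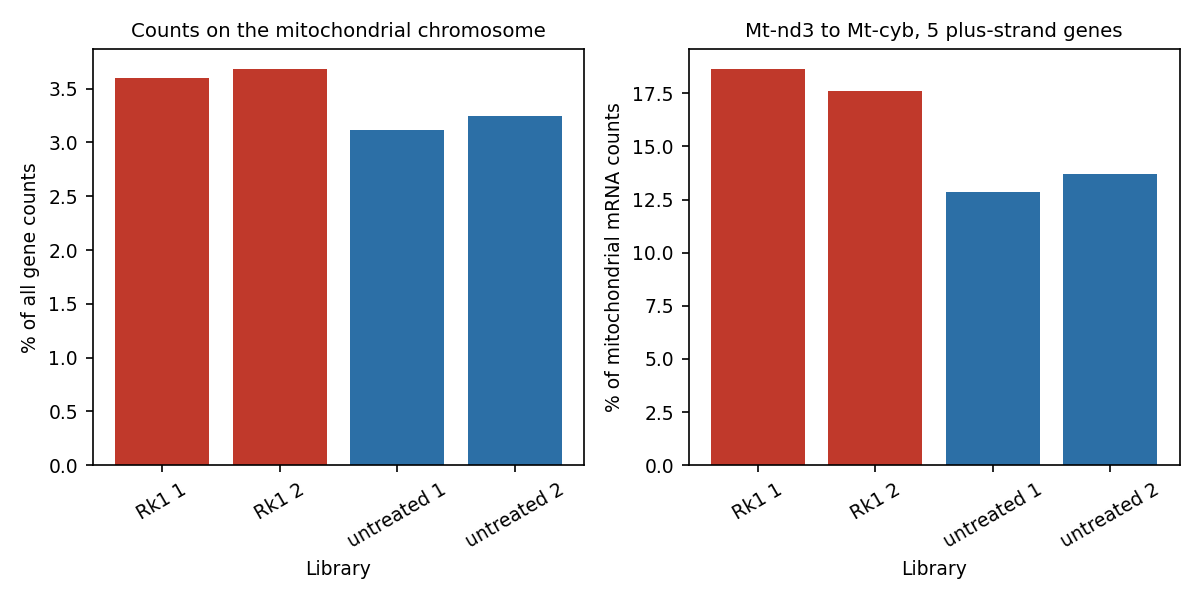
Bars give, for each library, the percentage of all gene counts on the mitochondrial chromosome (left) and the percentage of mitochondrial mRNA counts on the 5 plus-strand genes from Mt-nd3 to Mt-cyb (right), red for Rk1 and blue for untreated, numbered by replicate. In both panels each Rk1 bar stands above each untreated bar, by 3.60% and 3.68% against 3.11% and 3.24% on the left and by 18.6% and 17.6% against 12.8% and 13.7% on the right.

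Protein gene levels, given per kilobase (kb) of gene, differed widely along the chromosome. Mt-co1, the catalytic subunit of cytochrome c oxidase, had the highest level, with a mean of 8751 CPM per kb over the 4 libraries, and it had more counts than any other gene of the table in each library. Below it the order was set within each group. Mt-atp6, the proton channel subunit of ATP synthase, averaged 5971 CPM per kb with Rk1 and 4988 untreated, and Mt-co3 averaged 5272 with Rk1 and 4826 untreated. The libraries of these 2 neighbours overlapped among untreated cells, and no other neighbours in the order overlapped in either group. Mt-nd2 followed, at 4172 CPM per kb with Rk1 and 3387 untreated. The next 2 places were reversed between the groups. Mt-cyb, at 4035 and 3807 CPM per kb, lay above Mt-nd1, at 3418 and 3238, with Rk1. In untreated cells Mt-cyb, at 2346 and 2636 CPM per kb, lay below Mt-nd1, at 3204 and 3082. The rest kept 1 order in both groups, with means of 1345 CPM per kb with Rk1 and 1043 untreated for Mt-nd3, and 1087 with Rk1 and 929 untreated for Mt-atp8. Mt-nd5 (791 CPM per kb with Rk1, 499.7 untreated), Mt-nd4l (538 with Rk1, 299 untreated) and Mt-co2 (271 with Rk1, 241 untreated) came after them. Mt-nd6 (65.8 CPM per kb with Rk1, 69.6 untreated) and Mt-nd4 (13.0 with Rk1, 9.30 untreated) were lowest. Although Mt-nd4l and Mt-nd4 are adjacent and are known to share an mRNA, Mt-nd4l was 40.9 and 41.6 times Mt-nd4 per base with Rk1, and 25.2 and 41.9 times untreated. Mt-atp6 was likewise 5.32 and 5.68 times Mt-atp8 per base with Rk1, and 5.61 and 5.18 times untreated, although these genes also share an mRNA.

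**Figure D2:**
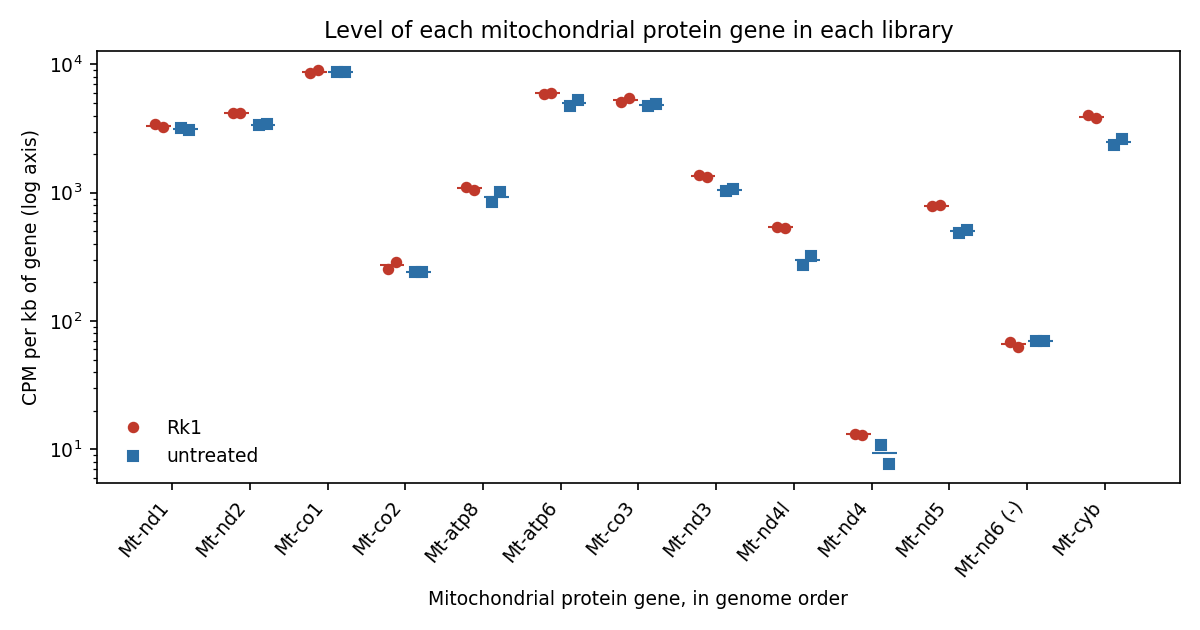
Points give each library's level of the 13 mitochondrial protein genes in CPM per kb of gene on a log axis, with genes in genome order, red circles for Rk1, blue squares for untreated, lines for the mean of 2 libraries and (-) for the minus strand. Mt-co1 is highest at 8751 CPM per kb over all libraries and Mt-nd4 lowest at 11.2, and the Rk1 points of Mt-nd4l, Mt-nd5 and Mt-cyb lie above their untreated points.

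Of the 13 protein genes, 6 rose with Rk1 and 0 fell, against 11.5% and 10.5% of all genes tested. The genes that rose were Mt-nd2, Mt-nd3, Mt-nd4l, Mt-nd5, Mt-cyb and Mt-atp6. In edgeR's test 10 protein genes were higher and 0 lower at an unadjusted p under 0.05, against 2291 and 2141 of all 12316 genes tested. DESeq2 and limma-voom each called 6 higher and 0 lower. Of all genes, DESeq2 called 7.26% higher and 7.21% lower, and limma-voom 11.3% higher and 10.4% lower. The median log2 fold change was 0.26, with a range of -0.08 to 0.85, against a median of 0.00 over all genes tested. Libraries of the 2 groups did not overlap for 12 of the 13 genes, as was so for 63.0% of all genes tested. Each of the 6 genes that rose was called again under all 14 other settings that scale to the whole library, including the omission of any 1 library.

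Complex I takes electrons from NADH, and 7 of its subunits are encoded on the chromosome. Of these, 4 rose. The largest change was that of Mt-nd4l (ENSRNOG00000031053, MT:9870-10166, plus strand), which had 161 and 159 CPM with Rk1, and 81.4 and 96.2 CPM untreated. The groups lay far apart, with a log2 fold change of 0.85 ± 0.08 (SE, edgeR adjusted p = 4.1e-04), or 1.80-fold. Mt-nd5 (ENSRNOG00000029971, MT:11736-13565, plus strand), a subunit of the proton-pumping arm, had 1437 and 1456 CPM with Rk1, and 885 and 944 CPM untreated. It rose 1.58-fold (0.66 ± 0.04, adjusted p = 1.2e-04), with each group's libraries close together. Mt-nd3 (ENSRNOG00000033615, MT:9451-9798, plus strand) had 478 and 458 CPM with Rk1, and 356 and 370 CPM untreated, a 1.29-fold rise (0.37 ± 0.04, adjusted p = 0.0015). Mt-nd2 (ENSRNOG00000031033, MT:3904-4942, plus strand) had 4337 and 4334 CPM with Rk1, and 3478 and 3561 CPM untreated, a 1.23-fold rise (0.30 ± 0.03, adjusted p = 7.1e-04).

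The other 3 complex I genes did not pass. Mt-nd1 (ENSRNOG00000030644, MT:2740-3694, plus strand), which lies nearest to the rRNA genes and helps form the quinone site, had 3264 and 3092 CPM with Rk1, and 3060 and 2944 CPM untreated (0.08 ± 0.04, adjusted p = 0.18). Mt-nd4 (ENSRNOG00000029707, MT:10160-11537, plus strand) had only 328 and 323 counts with Rk1, and 304 and 194 counts untreated (0.48 ± 0.15, adjusted p = 0.061). It was called under 3 of the 14 other settings that scale to the whole library. With all 4 libraries kept, these were a replicate block (0.50, edgeR adjusted p = 0.029) and robust dispersions (0.48, 0.045). In CPM, untreated replicate 1 lay closer to the Rk1 libraries than to untreated replicate 2, and Mt-nd4 was called without untreated replicate 1 (0.76, adjusted p = 0.0029) but was at 0.26 (adjusted p = 0.14) without untreated replicate 2. Mt-nd6 (ENSRNOG00000029042, MT:13543-14061, minus strand) had 35.6 and 32.7 CPM with Rk1, and 36.2 and 36.0 CPM untreated (-0.08 ± 0.06, adjusted p = 0.41). It was the only protein gene with a negative log2 fold change under this scaling of all 4 libraries. Mt-co1 was negative too with upper-quartile scaling (-0.02), without Rk1 replicate 2 (-0.03) and without untreated replicate 1 (-4.8e-04). Whether the counting used strand is not given, so reads of Mt-nd6 and of plus-strand transcripts that run across it cannot be told apart.

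Complex III has Mt-cyb (ENSRNOG00000031766, MT:14136-15278, plus strand) as its single subunit from the chromosome, the cytochrome b that passes electrons between the quinone sites. Mt-cyb had 4612 and 4351 CPM with Rk1, and 2681 and 3013 CPM untreated. Both Rk1 libraries were well above both untreated ones, a 1.57-fold rise (0.65 ± 0.06, edgeR adjusted p = 3.9e-04). By count it had rank 5 and rank 4 among all genes in the Rk1 libraries, and rank 16 and rank 14 in the untreated libraries.

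Complex IV, cytochrome c oxidase, reduces oxygen, and none of its 3 mitochondrial genes passed edgeR's test (2 were higher at an unadjusted p under 0.05). Mt-co1 (ENSRNOG00000034234, MT:5323-6867, plus strand) had 13201 and 13884 CPM with Rk1, and 13434 and 13563 CPM untreated. The untreated libraries lay between the Rk1 libraries, and the log2 fold change was 0.00 ± 0.03 (adjusted p = 0.93). Mt-co2 (ENSRNOG00000030371, MT:7006-7689, plus strand), which accepts electrons from cytochrome c, had 175 and 196 CPM with Rk1, and 165 and 165 CPM untreated (0.17 ± 0.06, adjusted p = 0.085). Mt-co3 (ENSRNOG00000030700, MT:8599-9382, plus strand) had 3994 and 4272 CPM with Rk1, and 3719 and 3848 CPM untreated (0.13 ± 0.04, adjusted p = 0.063). Mt-co2 and Mt-co3 were each called under 2 of the 14 other settings that scale to the whole library. With all 4 libraries kept, these were robust dispersions for Mt-co2 (edgeR adjusted p = 0.041) and a replicate block for Mt-co3 (0.012). Without Rk1 replicate 1, Mt-co2 (0.25, adjusted p = 0.024) and Mt-co3 (0.18, adjusted p = 0.020) were called, and without Rk1 replicate 2 they were at 0.09 (adjusted p = 0.35) and 0.08 (0.21).

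ATP synthase has a pair of genes here, which overlap. Mt-atp6 (ENSRNOG00000031979, MT:7919-8599, plus strand) had 4038 and 4095 CPM with Rk1, and 3209 and 3585 CPM untreated, a 1.20-fold rise (0.26 ± 0.05, edgeR adjusted p = 0.011). Mt-atp8 (ENSRNOG00000033299, MT:7758-7961, plus strand), a small stator subunit, had 228 and 216 CPM with Rk1, and 171 and 207 CPM untreated. Its log2 fold change of 0.23 ± 0.08 was close to that of Mt-atp6 but did not pass (adjusted p = 0.097), and it ranged from 0.10 (adjusted p = 0.35) without untreated replicate 1 to 0.36 (adjusted p = 0.0066, called) without untreated replicate 2. That both were higher with Rk1 by about the same amount is a description, since the difference between them was not tested.

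The changes were larger in the later part of the chromosome but did not rise gene by gene. Mt-nd2 (0.30) lay above every protein gene from Mt-co1 to Mt-co3. Among the 12 plus-strand protein genes, the 5 from Mt-nd3 to Mt-cyb had a median log2 fold change of 0.65 and 4 of them rose, whereas the 7 from Mt-nd1 to Mt-co3 had a median of 0.17 and 2 of them rose. This division was made after the values were seen and carries no test. Across the 12 genes, Spearman's rho between position and log2 fold change was 0.79 and Pearson's r was 0.74. These genes share the same 4 libraries and joined transcripts and are not independent, so the correlation is a description. It was not computed within either part of the division. The log2 fold change had a rho of -0.56 with level per kb and of 0.01 with gene length.

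Within mitochondrial mRNA the balance differed between the groups. The 5 genes from Mt-nd3 to Mt-cyb made up 18.6% and 17.6% of mitochondrial mRNA counts with Rk1, and 12.8% and 13.7% untreated. Mt-cyb alone made up 12.8% and 11.9% with Rk1, and 8.57% and 9.32% untreated. Mt-co1 made up 36.7% and 38.0% with Rk1, and 42.9% and 41.9% untreated. Per base, Mt-cyb was 0.472 and 0.424 of Mt-co1 with Rk1, and 0.270 and 0.300 untreated, and Mt-nd5 was 11.4 and 12.6 times Mt-nd6 with Rk1, and 6.93 and 7.43 times untreated. In each of these shares and ratios the groups did not overlap. The ratio of Mt-co1 to Mt-co2 did not overlap either. This is a description without a test, since the 5-gene division was made after the values were seen. Shares of the same total also depend on each other, so a larger share of some genes goes with a smaller share of others. The groups did not overlap for 63.0% of all genes tested, but that figure is for CPM and not for shares or ratios. The ratios of Mt-nd4l to Mt-nd4, Mt-atp6 to Mt-atp8 and Mt-co3 to Mt-co2 did overlap between the groups.

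The same edgeR test was run with each library scaled to its mitochondrial mRNA total in place of all genes. A gene is thus set against a total that includes its own counts. Mt-co1 alone held 36.7% to 42.9% of that total over the libraries. On this scale 3.88% of all genes tested were called higher and 37.5% lower, and the median log2 fold change of all genes moved to -0.19. Of the 13 protein genes, 4 were higher with Rk1, namely Mt-nd4l (0.66 ± 0.07, adjusted p = 4.1e-04), Mt-nd5 (0.47 ± 0.05, 4.5e-04), Mt-cyb (0.47 ± 0.06, 8.7e-04) and Mt-nd3 (0.18 ± 0.06, 0.036). A further 2 were lower, Mt-nd6 (-0.27 ± 0.07, adjusted p = 0.017) and Mt-co1 (-0.18 ± 0.04, 0.0087). Mt-nd2 (0.11 ± 0.05, adjusted p = 0.080) and Mt-atp6 (0.07 ± 0.05, 0.31) rose when scaled to the whole library but did not pass on this scale. This scaling shows unequal change among mitochondrial mRNAs, not which of them stayed the same.

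**Figure D3:**
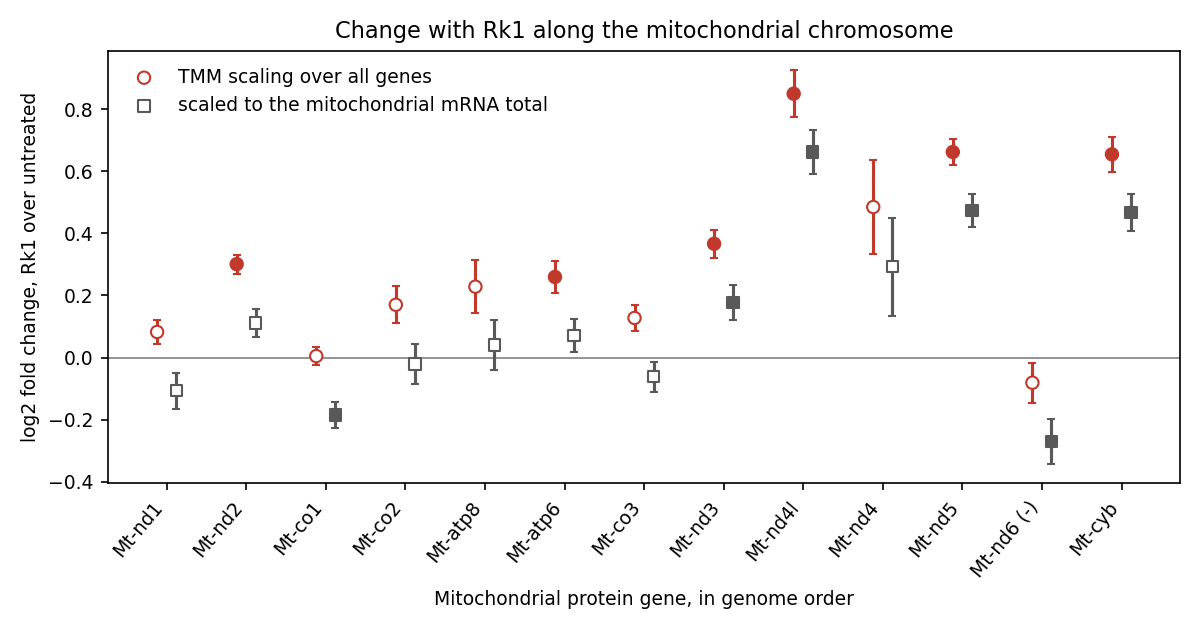
Points give the log2 fold change of Rk1 over untreated with its standard error for the 13 mitochondrial protein genes in genome order, as red circles for scaling over all genes and grey squares for scaling to the mitochondrial mRNA total, filled where the adjusted p was under 0.05 and with (-) for the minus strand. On both scales Mt-nd4l, Mt-nd5 and Mt-cyb are highest (0.85, 0.66 and 0.65 over all genes), while Mt-co1 and Mt-nd6 are the lowest.

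Ribosomal and transfer RNAs were almost without counts. The smaller rRNA row (MT:68-1025, plus strand) had 1 and 2 counts with Rk1, and 7 and 1 untreated. The larger (MT:1094-2664, plus strand) had 0 and 2 counts with Rk1, and 1 and 0 untreated. Mitochondrial rRNAs are usually among the most abundant RNAs of a cell, and whether the libraries were made from polyadenylated or rRNA-depleted RNA is not given in the sources used here. No fold is given for either, since most values were at or under 3 counts.

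Of the 22 tRNA rows, 13 were at 0 in every library, and at the lowest depth a row at 0 may still hold up to 0.167 CPM (3 counts). A count was found for 5 of the 8 minus-strand tRNA rows and for 4 of the 14 plus-strand ones. As for Mt-nd6, whether the counting used strand is not given. Reads of minus-strand tRNA rows and of plus-strand transcripts that run across them therefore cannot be told apart. The highest tRNA row was the minus-strand row beside the control region (MT:15348-15415), with 342 and 267 counts with Rk1, and 286 and 252 untreated (0.27 ± 0.13, edgeR adjusted p = 0.19). That row was called without Rk1 replicate 2 (0.45, adjusted p = 0.041) and was at 0.07 (adjusted p = 0.77) without Rk1 replicate 1. The minus-strand row that overlaps the end of Mt-co1 by 3 bases (MT:6865-6933) had 135 and 140 counts with Rk1, and 134 and 152 untreated (0.02 ± 0.15, adjusted p = 0.93), and turned to -0.14 without untreated replicate 1. The minus-strand row between Mt-nd1 and Mt-nd2 (MT:3761-3831) had 140 and 84 counts with Rk1, and 111 and 81 untreated (0.32 ± 0.25, adjusted p = 0.41). It turned to -0.11 (adjusted p = 0.79) without Rk1 replicate 1 and was at 0.65 (0.063) without Rk1 replicate 2.

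The remaining tRNA rows with at least 10 counts in all were sparse. The plus-strand row that abuts the end of Mt-nd2 (MT:4943-5008) had 17 and 15 counts with Rk1, and 7 and 7 untreated (1.27 ± 0.39, edgeR adjusted p = 0.056). The plus-strand row after Mt-cyb (MT:15280-15346) had 11 and 12 counts with Rk1, and 8 and 5 untreated (0.90 ± 0.44, adjusted p = 0.19). Both adjoin an mRNA that rose, and reads of the mRNA and of the tRNA cannot be told apart here. The minus-strand row at MT:5010-5078 had 28 and 16 counts with Rk1, and 33 and 30 untreated (-0.43 ± 0.32, adjusted p = 0.39). It was at -0.89 (adjusted p = 0.17) without Rk1 replicate 1 and -0.07 (0.91) without Rk1 replicate 2. The plus-strand row at MT:3835-3903 had 4 and 5 with Rk1, and 0 and 5 untreated. Of the 6 tRNA rows tested, 0 passed in edgeR, with 1 higher and 0 lower at an unadjusted p under 0.05. DESeq2 also called 0, but it gave no adjusted p for the rows after Mt-nd2 and after Mt-cyb, so it could not call them. limma-voom called 1, the row after Mt-nd2 (adjusted p = 0.047).

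Few of the nuclear genes that copy, transcribe, process and break down mitochondrial DNA and RNA were called. Of 65 listed genes, 62 were in the table and 59 were tested, and 1 rose and 3 fell, which is 6.78% called against 22.0% of all genes tested. The median log2 fold change of the tested members was -0.04, with a range of -0.50 to 0.32. The log2 fold change was positive for 19 of the 59, against 6192 of the 12316 genes tested in all. At an unadjusted p under 0.05 in edgeR's test, 3 members were higher and 10 lower, against 2291 and 2141 of all genes tested. Dna2, Trmt61b and Fastkd5 were not found by symbol, and Mterf2, Nsun4 and Ppargc1a had too few counts to test. Ppargc1a, a coactivator that drives mitochondrial biogenesis, had 0 counts in all libraries.

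Calls were made for 2 of 16 tested members for RNA processing and modification (12.5%) and for 2 of 11 for RNA stability and decay (18.2%), both under the 22.0% of all genes tested. Pnpt1, the nuclease of mitochondrial RNA decay, had 122 and 142 CPM with Rk1, and 193 and 181 CPM untreated. It fell, with the groups well apart (-0.50 ± 0.07, edgeR adjusted p = 0.0037). Elac2, which cuts the ends of tRNAs, had 39.9 and 39.9 CPM with Rk1, and 53.4 and 49.1 CPM untreated (-0.36 ± 0.06, adjusted p = 0.0054). Fastk, a founding member of a family of mitochondrial RNA-binding proteins and known for a part in the maturation of the Mt-nd6 mRNA, had 38.0 and 37.4 CPM with Rk1, and 45.1 and 43.7 CPM untreated (-0.24 ± 0.05, adjusted p = 0.019). Hsd17b10, a dehydrogenase that is also a subunit of mitochondrial RNase P, rose, with 83.2 and 79.3 CPM with Rk1, and 67.0 and 69.3 CPM untreated (0.25 ± 0.05, adjusted p = 0.011). Fastk was not called by DESeq2 (-0.24, adjusted p = 0.15) nor without Rk1 replicate 2 (-0.22, 0.060), untreated replicate 1 (-0.21, 0.13) or untreated replicate 2 (-0.27, 0.079). Hsd17b10 was not called without Rk1 replicate 1 (0.22, adjusted p = 0.053) or untreated replicate 1 (0.23, 0.0502).

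The next members by p did not pass. Ptcd3, a mitochondrial ribosome protein, was at 76.7 ± 1.2 CPM with Rk1 and 85.1 ± 0.42 CPM untreated (-0.15 ± 0.05, edgeR adjusted p = 0.051). Mterf4, which helps methylate mitochondrial rRNA, was at 16.5 ± 0.60 CPM with Rk1 and 13.3 ± 0.99 CPM untreated (0.32 ± 0.10, adjusted p = 0.058). Mrm3, an rRNA methyltransferase, was at 8.65 ± 0.75 CPM with Rk1 and 11.2 ± 0.54 CPM untreated (-0.37 ± 0.12, adjusted p = 0.060). The others were Ptcd1 (-0.24), the GABP regulator subunit Gabpb1 (-0.29), the ribosomal and polymerase-binding protein Mrpl12 (-0.12), the DNA ligase Lig3 (-0.12) and the topoisomerase Top1mt (-0.24), with adjusted p between 0.074 and 0.12. Gabpb1 was called without Rk1 replicate 1 (-0.43, adjusted p = 0.036) and was at -0.16 (adjusted p = 0.34) without Rk1 replicate 2. Robust dispersions called Ptcd3 (adjusted p = 0.043), Mterf4 (0.039), Mrm3 (0.040) and Gabpb1 (0.047). Upper-quartile scaling called Ptcd3 (0.029) and Mrm3 (0.046), and RLE scaling (0.047) and the stricter filter (0.044) called Ptcd3.

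The transcription and replication core gave no call. Polrmt, the polymerase, was at 13.1 ± 2.6 CPM with Rk1 and 13.4 ± 0.32 CPM untreated (-0.03 ± 0.14, edgeR adjusted p = 0.91). Tfb2m, which opens the start site, was at 14.0 ± 0.30 CPM with Rk1 and 13.8 ± 0.23 CPM untreated (0.02 ± 0.09, adjusted p = 0.91). Tfam, which bends and packages the DNA, was at 58.6 ± 2.6 CPM with Rk1 and 62.8 ± 2.6 CPM untreated (-0.10 ± 0.06, adjusted p = 0.25). Among replication enzymes, the DNA polymerase Polg was at 75.2 ± 1.4 CPM with Rk1 and 69.7 ± 2.6 CPM untreated (0.11 ± 0.05, adjusted p = 0.17). The helicase Twnk was at 30.8 ± 3.6 CPM with Rk1 and 29.7 ± 0.057 CPM untreated (0.05 ± 0.09, adjusted p = 0.72). A p that misses the threshold does not show that these levels were equal.

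**Figure D4:**
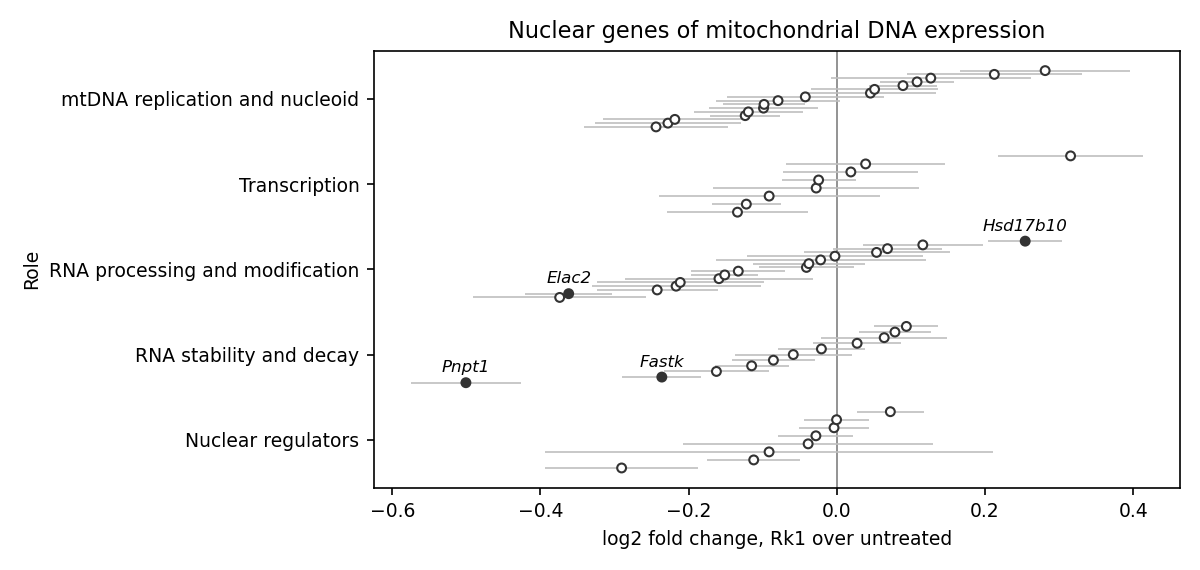
Points give the log2 fold change of Rk1 over untreated with its standard error for the 59 tested nuclear genes of mitochondrial DNA expression, by role, filled and named where the adjusted p was under 0.05. Pnpt1 (-0.50), Elac2 (-0.36), Fastk (-0.24) and Hsd17b10 (0.25) are filled. The replication, transcription and regulator rows hold open points, of which 7 of 16, 3 of 8 and 1 of 8 lie above 0.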

How the data were processed

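RNA-seq of 4 HSC-T6 libraries was analysed from 1 table in which the authors deposited raw, unnormalised counts for each Ensembl gene. Per the submitters' processing notes, HISAT2 and HTSeq were used, and gene positions are in Rnor_6.0 per the file headers. For these tools no version is given in the sources used here, nor is the strand setting or how multiply matching reads were counted. The summed exon length deposited beside the counts, in bases, gave the CPM per kb.

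The low-count filter was filterByExpr, with a minimum of 10 counts and of 15 in total, and kept 12316 of 32883 genes. edgeR 4.0.16 in R 4.3.3 fitted all genes with TMM scaling (factors 0.994 to 1.01), a single term for treatment, and 2 residual degrees of freedom. The Benjamini-Hochberg adjustment ran over all genes tested. Standard errors are the log2 fold change over the square root of F. Alternatives used DESeq2 1.42.0, limma 3.58.1, other scalings and filters, robust dispersions, a replicate block, and each library left out, in which case the remaining library of that group borrows its spread from the other group.

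The libraries of a group differed beyond counting noise, as their counts gave a chi-square of 4.49 (Rk1) and 4.39 (untreated) per degree of freedom. Intervals and floors cover counting error only, since no molecular identifiers are described. The members, gene lists and tests were chosen with earlier results of these data known. Named genes were all mitochondrial protein and rRNA genes, tRNA rows with at least 10 counts in all, and of the nuclear list the 12 with the smallest p and 5 core genes. No mitochondrial sequences are printed, as the reference tables used here hold none, and tRNA rows are given by position because the table does not name them.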

Additional observations from a re-analysis of the deposited data

How the results depend on the processing

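The 6 mitochondrial protein genes that rose, the same genes each time, were called under each of the 14 settings that scale to the whole library. Those of the settings that kept all 4 libraries called 6 to 8 protein genes higher and 0 lower. Of all genes tested, the same settings called 7.26% to 13.6% higher and 6.99% to 12.6% lower. Scaled to the mitochondrial mRNA total, 4 protein genes were higher and 2 lower, and Mt-co1 turned to -0.18 (adjusted p = 0.0087), as that scaling sets each gene against the mitochondrial total. That scaling also called 0 of the 59 tested nuclear genes of the list higher and 31 lower, beside 3.88% of all genes higher and 37.5% lower. Mitochondrial tRNA calls numbered 1 higher by limma-voom and 1 with robust dispersions, beside 11.3% and 13.1% of all genes tested called higher. For the 59 tested genes of the nuclear list, robust dispersions called 2 higher and 6 lower, beside 13.1% and 11.7% of all genes tested. Upper-quartile scaling called 5 of the list lower, beside 12.6% of all genes tested. The cause of these shifts was not tested. The labels do not say whether libraries with the same replicate number share anything more than that number. The correlation of the deviations of same-numbered libraries was 0.059. With a replicate block 8 mitochondrial protein genes and 2 nuclear list genes were higher and 4 nuclear list genes lower. The block called 3220 genes in all (13.6% of genes tested higher and 12.5% lower), against 2711 without it. DESeq2 called 1712 genes in all. The difference in mitochondrial share was 0.396 to 0.525 percentage points when a library was left out. The rRNA and most tRNA rows had too few counts to test.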
